A study of Gallus gallus with 60 samples.

Results

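The miR-106-363 cluster is a run of 6 neighbouring miRNA hairpins in the chicken RefSeq annotation (GRCg7b), in the order MIR106A, MIR18B, MIR20B, MIR19B-2, MIR92-2 and MIR363. Its miRNAs were taken as the rows of the deposited tables whose names begin with gga-miR-106-, gga-miR-18b-, gga-miR-20b- or gga-miR-363-. This gave 6 rows, the 5p and 3p arms of 3 hairpins, of 890 rows in the table of embryos and muscle and of 707 rows in the table of 5 other tissues. gga-miR-363 was not analysed here, and gga-miR-19b and gga-miR-92 were left to the list of the related miR-17-92 cluster, because the files give 1 name for the copies of both clusters.

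A miRNA hairpin is cut into a short duplex, and the strand from its 5p or its 3p arm is loaded into an Argonaute protein, where its seed pairs with target messages and lowers their translation and stability. The miR-106-363 and miR-17-92 clusters are copies of an ancestral vertebrate cluster. In mammals gga-miR-106-5p and gga-miR-20b-5p have counterparts in the miR-17 seed family, together with miR-17-5p and miR-20a-5p, which is known for promoting the cell cycle and for repressing inhibitors of it, while miR-18a-5p and miR-18b-5p form a seed family of their own. The duplicated members are close in sequence, and the rule used to count a read that fits more than 1 of them was not given in the sources used here, so the split between such pairs is uncertain.

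Small RNA of Tibetan chickens was sequenced in 20 groups of 3 samples each, and no group carried a transgene, a deletion or a treatment. The muscle groups were taken at embryonic days 9, 12, 15, 18 and 20 (E9 to E20), at days 1, 36, 100 and 300 after hatching (D1 to D300), and at 3, 5, 8 and 12 years (Y3 to Y12). Liver, ovary, brain, spleen and kidney were taken at D300. The labels call E5 and E7 pectoral muscle and the methods of the study call them entire embryos, and the methods give the second year for the group labelled 3 years. The labels place the birds on a poultry farm in Tibet, and the methods state that fertile eggs were bought and incubated for the embryonic stages. The study grouped the 13 muscle stages by clustering of these same samples into an early embryonic period (Pre_E, E9 and E12), a late embryonic period (Lat_E, E15 to D1) and a postnatal period (Bir_G, D36 to Y12), so the periods are not independent of the data.

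The deposited values, called TPM by the authors, behave as reads scaled to a library total (RPM). Whole reads were recovered in 56 of 60 samples, with library totals of 9347754 to 13060558 reads, so that 3 reads, taken as the smallest detectable amount, are worth 0.230 to 0.321 TPM. Floors of this kind cover counting error only. The listed miRNAs sum to 294507 to 630236 TPM from E5 to D1 and to 657870 to 875328 TPM from D36 to Y12. In the 5 other tissues they sum to 410664 to 916277 TPM. The lowest of these is Kidney-1, beside 788209 TPM in Kidney-2 and 847464 TPM in Kidney-3. The 4 muscle markers fixed for the report (gga-miR-1a-3p, gga-miR-133a-3p, gga-miR-206 and gga-miR-499-5p) sum to 7887 to 74534 TPM in Pre_E, 71489 to 224864 TPM in Lat_E and 211712 to 393778 TPM in Bir_G. This rise does not hold for each marker. gga-miR-206 averaged 165 TPM over the muscle samples and had a stage pattern close to that of gga-miR-20b-5p, which fell (Pearson's r = 0.956). In E5 and E7 the 4 muscle markers sum to 2005 to 4130 TPM beside 5374 to 9029 TPM of the 2 brain markers gga-miR-124a-3p and gga-miR-9-5p. The brain markers reach 47359 to 63190 TPM in brain, and gga-miR-122-5p, the liver marker, 6374 to 7494 TPM in liver. The only kidney marker matched, gga-miR-194, did not mark kidney, at 2.08 to 3.70 TPM there. It was at 3.44 to 8.94 TPM in the other 4 tissues and at 8.17 to 25.5 TPM in muscle at D300. The 2 epithelial markers gga-miR-200b-3p and gga-miR-429-3p summed to 2718 to 4628 TPM in kidney and to at most 952 TPM in the other 4 tissues. All 52 replicate pairs compared differ beyond sampling noise, and Dixon's outlier test over the 6 samples of Pre_E marked none for the 16 cluster and miR-17-92 miRNAs it could be run on. That test pools E9 and E12, so it cannot show whether a sample departs from the others of its own stage. For example, gga-miR-106-5p was at 820 TPM in E12-1 and at 287 and 313 TPM in E12-2 and E12-3. No source names a batch, so no within-batch values could be given.

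The cluster was most abundant at E5 and E7, which the methods call entire embryos, so the tissue changes between E7 and E9. Within muscle it was highest at E9 and E12 and lowest in the adult stages. The 6 arms summed to 2787 ± 182 TPM (SD, n = 3) at E5, 2408 ± 326 at E7, 1895 ± 591 at E9 and 1879 ± 907 at E12. E15 had 1189 ± 379 TPM and E18 had 945 ± 115, while E20 had 579 ± 195 and D1 had 482 ± 154. Later the sum was 420 ± 100 TPM at D36 and 372 ± 25.8 at D100, and then 111 ± 3.90 at D300. It stayed between 78.6 ± 10.3 TPM, at Y5, and 134 ± 21.05 TPM, at Y3, in the adult stages. gga-miR-20b-5p was the most abundant arm in most of these samples, followed by the arms of gga-miR-106. In whole tissue, fewer cells that make a miRNA and less of it per cell cannot be told apart.

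**Figure D1:**
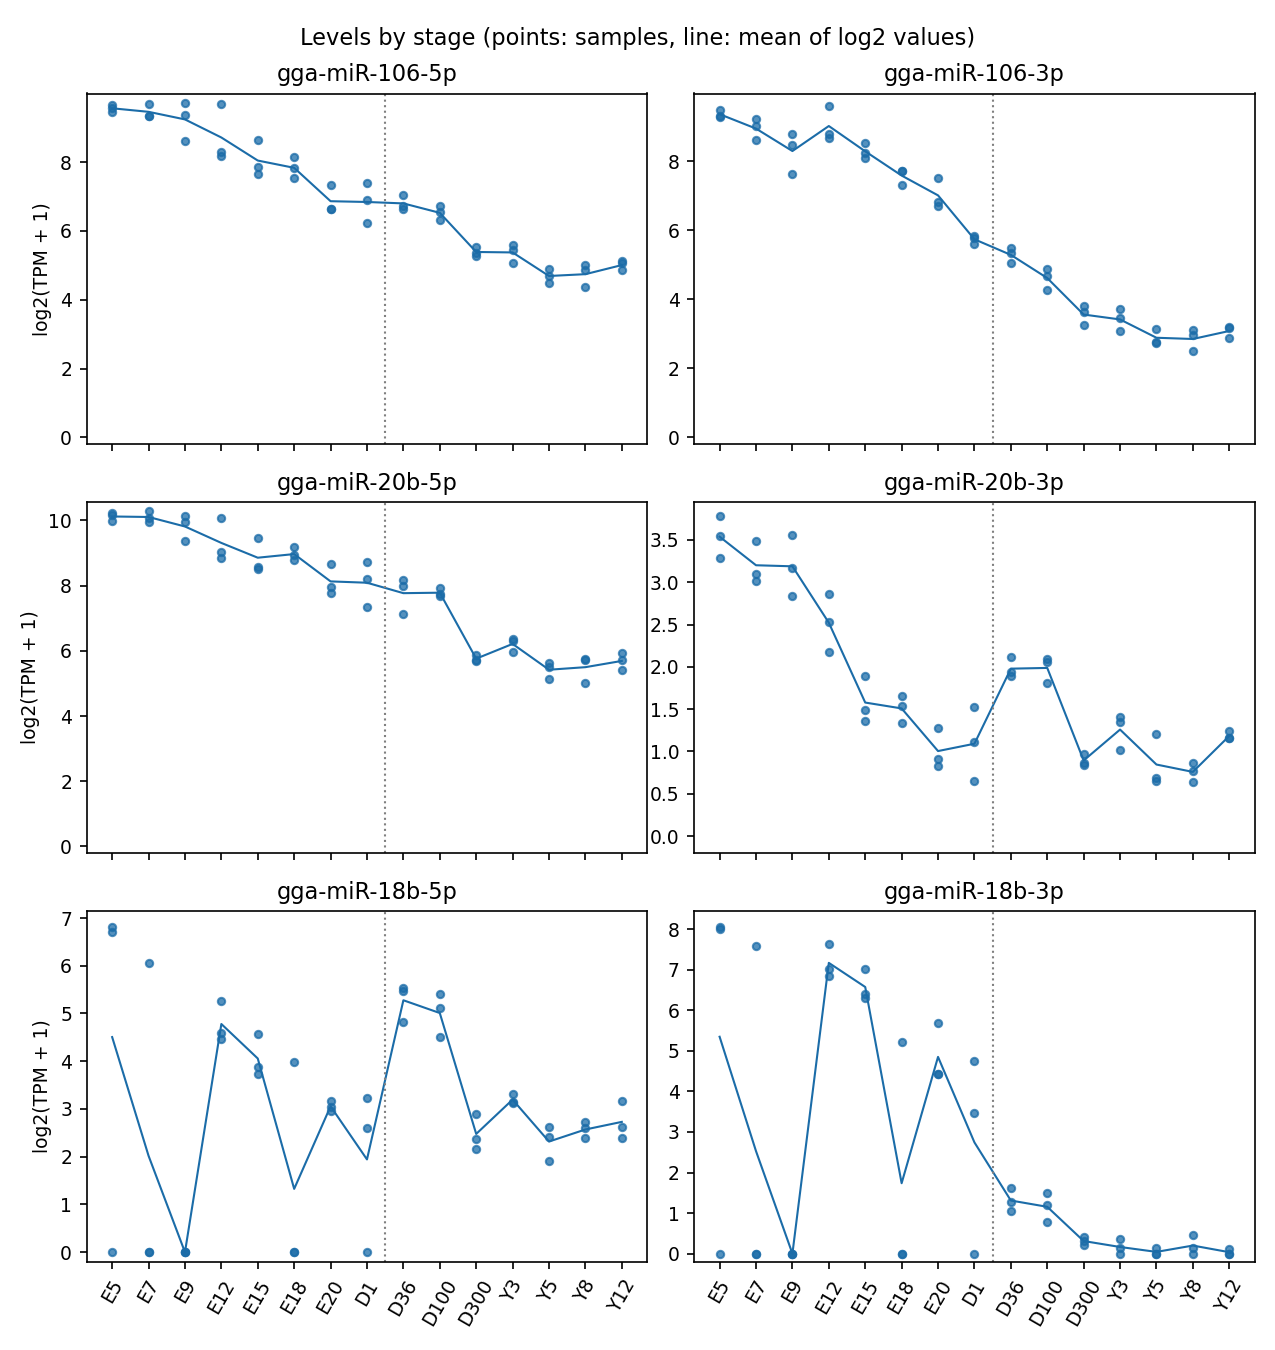
Level of each arm of the miR-106-363 cluster by stage, on a log2(TPM + 1) axis, with a point per library, a line through the stage means and a dotted line between D1 and D36. gga-miR-106-5p, gga-miR-106-3p and gga-miR-20b-5p run downwards from E5 to the adult stages, where E5 and E7 are entire embryos by the methods. The arms of gga-miR-18b are listed at 0 in 9 of the 24 libraries up to D1. gga-miR-18b-3p is at or below 2.07 TPM in all later muscle libraries.

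gga-miR-106-5p, a member of the miR-17 seed family, was at 845, 391 and 666 TPM in the 3 samples of E9 and at 820, 287 and 313 TPM in those of E12. The 12 samples of Lat_E had a lowest value of 74.6 TPM, a median of 175 and a highest of 398. The 21 samples of Bir_G lay at 19.5 to 132 TPM around a median of 37.9. No sample of Pre_E was as low as the highest of Bir_G, while both pairs of neighbouring periods overlapped. The limma fit on log2(TPM + 1) gave a log2 fold change of −1.58 ± 0.34 (SE, adjusted p = 0.0016) from Pre_E to Lat_E, −1.89 ± 0.28 (adjusted p = 4.42e-07) from Lat_E to Bir_G and −3.47 ± 0.36 (adjusted p = 2.09e-09) over both.

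gga-miR-106-3p, the strand from the opposite arm of this hairpin, had a mean of 340.2 TPM from E5 to D1, beside 415 TPM for the 5p arm, and of 14.7 TPM from D36 to Y12, beside 52.5 TPM. It was at 445, 196 and 352 TPM at E9 and at 779, 405 and 440.4 TPM at E12. Lat_E ran from 47.6 to 368 TPM around a median of 169, and Bir_G from 4.65 to 43.4 TPM around a median of 8.53. No library of Bir_G reached the lowest library of Lat_E. The log2 fold change was −1.50 ± 0.44 (SE, adjusted p = 0.0124) from Pre_E to Lat_E, −3.48 ± 0.34 (adjusted p = 6.88e-11) from Lat_E to Bir_G and −4.99 ± 0.39 (adjusted p = 7.66e-12) over both.

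gga-miR-20b-5p, the second miR-17 family member of the cluster, was at 1115, 659 and 992 TPM at E9 and at 1081, 456 and 517 TPM at E12. Its Lat_E libraries ran from 162 to 705 TPM with a median of 393, and its Bir_G libraries from 31.5 to 291 TPM with a median of 57.3. Pre_E lay wholly above Bir_G, and Lat_E overlapped with both. The log2 fold change was −1.05 ± 0.29 (SE, adjusted p = 0.00782), −2.21 ± 0.32 (adjusted p = 3.17e-07) and −3.26 ± 0.43 (adjusted p = 1.47e-07) for the same 3 comparisons.

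gga-miR-20b-3p was scarce throughout, at 12.8, 8.73 and 10.7 TPM at E5 and at 6 to 37 recovered reads per library from D36 to Y12. It lay between 3.53 and 10.8 TPM in Pre_E and between 0.564 and 2.70 TPM in Lat_E, without overlap. Bir_G, at 0.560 to 3.33 TPM, covered the whole range of Lat_E. It fell from Pre_E to Lat_E, with a log2 fold change of −1.56 ± 0.20 (SE, adjusted p = 2.07e-05), and did not pass the thresholds from Lat_E to Bir_G (−0.02). Its values at D36 (2.82, 2.70 and 3.33 TPM) and D100 (3.26, 3.18 and 2.50 TPM) were above every value of Lat_E, except for the lowest sample of each. The lowest of D36 and the highest of Lat_E are both 2.70 TPM at the digits given, and the lowest of D100 is below that.

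The arms of gga-miR-18b showed a different pattern, in which libraries of the same stage differ by their listing. gga-miR-18b-5p was listed at 104, 111 and 0 TPM at E5, at 0, 0 and 65.6 TPM at E7 and at 0 in all 3 samples of E9. It was then at 37.5, 23.2 and 21.2 TPM at E12, at 22.7, 13.7 and 12.2 TPM at E15 and at 14.8, 0 and 0 TPM at E18. gga-miR-18b-3p was listed at 0 in the same libraries and was above the 5p arm elsewhere up to D1, at 264 and 255 TPM in the other E5 libraries and at 199.7, 113 and 130 TPM at E12. A library with many reads of this arm can thus stand beside libraries of the same group that list none, as at E5, where the recovered reads run from 0 to 2715.

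Both arms were listed at 0 in 9 of the 24 libraries up to D1, in 0 of the 21 later muscle libraries and in 0 of the 15 tissue libraries. The close paralog gga-miR-18a-5p was listed in 2 of those 24 libraries, gga-miR-18b-5p in 15, neither in 7, and both together in none. From D36 on, both were listed in 21 of 21 muscle libraries and in 15 of 15 tissue libraries. A second miRNA of the paralogous cluster, gga-miR-19a, had both arms at 0 in 21 of the 24 earlier libraries and in none of the later ones. The stage and this difference in listing cannot be told apart, so a listed 0 is given as such and the ratio of gga-miR-18b-5p to gga-miR-18a-5p was not read.

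After hatching gga-miR-18b-5p was at 27.2, 45.2 and 43.6 TPM at D36 and at 33.5, 21.8 and 41.6 TPM at D100, and between 2.76 and 8.97 TPM in the 15 libraries from D300 to Y12. gga-miR-18b-3p did not exceed 2.07 TPM after D1 and was at or below 3 reads in 12 of the 19 later muscle libraries with recovered reads. The 5p arm was not called in any comparison of periods (0.21 from Pre_E to Lat_E, 0.77 from Lat_E to Bir_G and 0.98 over both, on the log2 scale). The 3p arm fell from Lat_E to Bir_G, with a log2 fold change of −3.52 ± 0.57 (SE, adjusted p = 2.6e-06). Without the libraries that list both arms at 0, a setting chosen after the values were seen, the change from Pre_E to Lat_E was −1.32 for the 5p arm and −1.87 for the 3p arm, each opposite in sign to the value over all libraries. This setting leaves out libraries by the value itself and leaves the 3 samples of E12 alone in Pre_E, so these values are a description.

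Members count as called where the unadjusted p did not exceed 0.05 and the level changed by 2-fold or more, the thresholds of the study. The limma fits of periods take single samples as units, not stages, so their p-values do not measure the spread between stages. From Pre_E to Lat_E 4 of 6 members were lower and 0 higher, where 18.3% of the 760 miRNAs tested were lower. The median log2 fold change was −1.28 for the members and −0.84 for the 179 miRNAs that averaged 10 TPM or more. With each sample centred on its median miRNA, 0 members passed, at −0.65 for gga-miR-106-5p, −0.57 for gga-miR-106-3p, −0.12 for gga-miR-20b-5p and −0.63 for gga-miR-20b-3p. This first step is therefore reported only on the scale of the library total. Over all miRNAs the calls were 16 higher and 139 lower as deposited, and 98 higher and 30 lower after centring.

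From Lat_E to Bir_G 4 of 6 members were lower and 0 higher, where 14% of 731 miRNAs were lower. The members had a median log2 fold change of −2.05, and the 186 miRNAs that averaged 10 TPM or more had one of 0.26. From Pre_E to Bir_G 5 of 6 were lower, all but gga-miR-18b-5p, where 24.8% of 785 miRNAs were lower, with a median of −3.19 for the members and −0.61 for the 195 more abundant miRNAs. All the members called in these 3 comparisons (4, 4 and 5) also had an adjusted p of at most 0.05. Of all miRNAs, 19.3%, 27.8% and 36.1% met this limit together with a change of 2-fold or more, higher and lower counted together. Without overlap between the samples, 4 of 6 members were lower in Bir_G than in Pre_E (19% of all miRNAs), 1 of 6, gga-miR-106-3p, was lower in Bir_G than in Lat_E (4.51%), and 1 of 6, gga-miR-20b-3p, was lower in Lat_E than in Pre_E (5%). Blood-cell markers moved over the same periods, with the 3 leukocyte miRNAs matched (of 5) summing to 59.2 to 278 TPM in Lat_E and 1721 to 9073 TPM in Bir_G, and the red cell miRNA gga-miR-144-3p (1 of 2 matched) at 0 to 22.8 and 123 to 687 TPM. Their part in the result, like that of the muscle markers and the listed total above, was not tested.

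**Figure D2:**
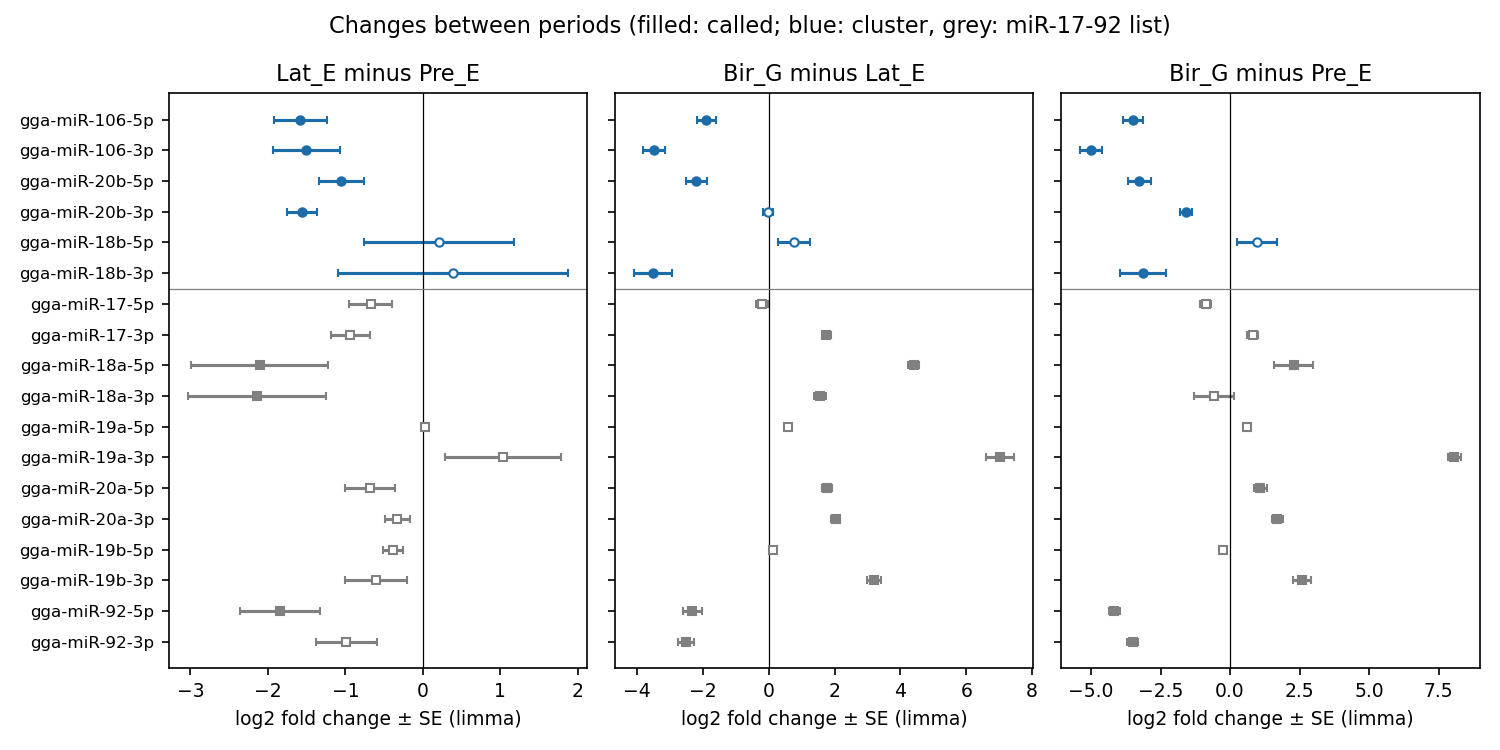
Change on the log2(TPM + 1) scale of the 6 cluster arms (blue) and of the 12 miRNAs of the miR-17-92 list (grey) for the 3 comparisons of periods, with SE bars and filled points for called changes. From Lat_E to Bir_G the called cluster arms lie between −1.89 and −3.52, while 7 of the 12 paralogs lie above 0 and were called higher.

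The levels were also followed over stage order. In a polynomial of degree 2 in stage order over the 39 muscle samples, 3 of 6 members passed the limit of an R-squared of at least 0.6, where 26.6% of 816 miRNAs passed and 19.7% passed with a falling curve. They were gga-miR-106-3p (R-squared 0.938), gga-miR-106-5p (0.915) and gga-miR-20b-5p (0.880). gga-miR-20b-3p reached 0.558, and 0.603 without replicate 2, while gga-miR-18b-3p and gga-miR-18b-5p were at 0.359 and 0.122.

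The trend was also fitted within each side of hatching, a choice made after the values were seen, on the scale of the library total only. The calls of members from Pre_E to Lat_E were lost with centring, and the slopes were not repeated with it. From E9 to D1 the log2 level fell per stage by 0.51 for gga-miR-106-5p (adjusted p = 2.56e-05), by 0.56 for gga-miR-106-3p (4.21e-05), by 0.34 for gga-miR-20b-5p (3.74e-04) and by 0.43 for gga-miR-20b-3p (9.77e-06). These are 4 of 6 members, where 39.3% of the 760 miRNAs fell with an adjusted p of at most 0.05. From D36 to Y12 the slopes of the 6 members are given without a cutoff, and the share of all miRNAs under that rule is not given here. With an adjusted p of at most 0.05, 14.1% of the 576 miRNAs fell there. That is a stricter rule, so the signs of the members' slopes cannot be set against this share. The slopes there were −0.34 for gga-miR-106-5p, −0.39 for gga-miR-106-3p, −0.40 for gga-miR-20b-5p, −0.17 for gga-miR-20b-3p, −0.45 for gga-miR-18b-5p and −0.21 for gga-miR-18b-3p, which rests on few reads. They do not describe an even fall. gga-miR-20b-5p had means of 227 TPM at D36, 220 at D100, 53.3 at D300, 73.8 at Y3 and 51.2 at Y12. At the same stages gga-miR-106-5p had 111, 91.7, 41.0, 41.0 and 31.2 TPM.

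Between D100 and D300 the values of all 6 members moved down together. gga-miR-20b-5p was at 206, 240.3 and 213 TPM at D100 and at 52.2, 50.3 and 57.3 TPM at D300. gga-miR-18b-5p was at 4.17, 6.44 and 3.49 TPM at D300, compared with 21.8 TPM in the lowest sample of D100. gga-miR-106-5p went from 78.3, 104 and 92.6 TPM to 44.9, 40.1 and 37.9 TPM, and gga-miR-106-3p from 24.6, 28.6 and 18.4 TPM to 11.4, 8.53 and 12.8 TPM. For every member the 3 samples of D300 lay below the 3 of D100, as for 16.8% of the 511 miRNAs tested. For gga-miR-18b-3p this rests on 2 to 4 reads per library at D300.

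In the limma fit of these 6 samples, 5 of 6 members were called lower from D100 to D300, where 8.81% of all miRNAs were. The log2 fold change was −2.02 ± 0.13 (SE, adjusted p = 0.00162) for gga-miR-20b-5p and −2.53 ± 0.30 (adjusted p = 0.00432) for gga-miR-18b-5p. It was −1.14 for gga-miR-106-5p, −1.06 for gga-miR-106-3p and −1.09 for gga-miR-20b-3p, near the limit of 1, and −0.84 for gga-miR-18b-3p, which was not called. Centred on the median miRNA only gga-miR-20b-5p and gga-miR-18b-5p passed, at −1.79 and −2.30. Of the 12 miR-17-92 list members, gga-miR-18a-5p alone was called lower in this step, at −1.01, and 0 were called higher. The red cell miRNA gga-miR-144-3p was at 427 to 687 TPM at D100 and 123 to 200 TPM at D300, and its part in the result was not tested.

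In the other steps between adjacent stages at most 2 members were called. gga-miR-106-3p was called lower from E20 (111, 181 and 104 TPM) to D1 (55.6, 47.6 and 54.2 TPM), at −1.27 with an adjusted p of 0.192, where 3.9% of miRNAs were lower. Calls of gga-miR-18b from E9 to E12 (both arms higher, beside 3.55% of miRNAs) and from E15 to E18 (the 3p arm lower, beside 4.15%) rest on libraries listed at 0. gga-miR-18b-5p was also called higher from D1 (8.36, 0 and 5.08 TPM) to D36, at 3.33 on the log2 scale (adjusted p = 0.033), where 23% of miRNAs were higher. Without a call, the samples of 3 of 6 members lay lower without overlap from E18 to E20 (14.9% of miRNAs), namely gga-miR-106-5p, gga-miR-20b-5p and gga-miR-20b-3p, at −0.97, −0.84 and −0.50 on the log2 scale. From Y3 to Y5 the same held for gga-miR-106-5p, gga-miR-20b-5p and gga-miR-18b-5p (7.76% of miRNAs), at −0.68, −0.79 and −0.88. The samples of gga-miR-20b-5p, gga-miR-20b-3p and gga-miR-18b-5p lay higher without overlap from D300 to Y3 (13.2% of miRNAs), at 0.45, 0.37 and 0.72. With 3 samples against 3 an exact permutation test cannot go below p = 0.1, and over all 114 tests of neighbouring stages and tissues the smallest adjusted p was 0.292. In the whole embryos 0 members were called between E5 and E7, where 8.2% of 768 miRNAs were called in either direction.

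The share of an arm in the reads of its hairpin does not depend on the scaling of a sample, since both arms are read from the same library. The log2 ratios were made with a pseudocount of 1, so they do depend on scaling and level where an arm is scarce. This concerns gga-miR-20b-3p and, after D1, gga-miR-18b-3p. In gga-miR-106 the 3p arm held 45.2% ± 9.71 (SD, n = 24) of the reads of both arms from E5 to D1 and 20.8% ± 2.94 (n = 21) from D36 to Y12. It varied among embryonic stages, from 34.1% ± 0.666 (n = 3) at E9 to 55.2% ± 5.67 at E12 and 54.2% ± 5.26 at E15, and was already 32.1% ± 10.3 at D1. The log2 ratio of the 5p to the 3p arm was 0.32 in Pre_E, 0.24 in Lat_E and 1.83 in Bir_G. Bir_G differed from Pre_E by 1.51 (exact permutation test, two-sided, p = 3.38e-06, adjusted p = 1.22e-05 over 18 ratio tests) and from Lat_E by 1.59 (100000 permutations, p = 1e-05, the smallest they can give). Pre_E and Lat_E differed by −0.08 (exact p = 0.823). The permutations here and for the other ratios exchange single samples, although stages within a period can differ without overlap. This ratio ran from 0.92 to 0.99 at E9 and from −0.50 to 0.07 at E12. The p-values of the ratios thus do not measure the spread between stages.

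Among the 3 hairpins, arm use differed most in gga-miR-18b. Over the 15 libraries up to D1 that list it, the 3p arm held 78.3% ± 7.32 (SD) of its reads, with a range of 66.5 to 87.5%. In the 21 later muscle libraries it held 2.69% ± 2.40, with a range of 0 to 7.27%, and in the 15 tissue libraries 5.26% ± 3.57, with a range of 1.20 to 12.5%. Neither of the later sets overlaps with the earlier one. Over libraries with reads of both arms, the log2 ratio of 5p to 3p rose by 4.85 from Lat_E (9 libraries) to Bir_G (15 libraries) (exact permutation test, two-sided, p = 7.65e-07). The change of arm falls at the same boundary, D1 to D36, as the change in listing, and the effects cannot be told apart.

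gga-miR-20b is a hairpin of 1 dominant arm, and its 3p arm held 0.626% ± 0.283 (SD, n = 24) of its reads up to D1, 1.73% ± 0.510 (n = 21) from D36 to Y12 and 1.44% ± 0.568 (n = 15) in the tissues. Its log2 ratio of 5p to 3p was 6.71 in Pre_E, 7.22 in Lat_E and 5.03 in Bir_G, a fall by 2.18 in the last step (100000 permutations, p = 1e-05). The direction is opposite to that of the other hairpins, whose 3p share fell. By stage the 3p share of gga-miR-20b was 0.448% ± 0.258 (SD, n = 3) at D1 and 1.39% ± 0.503 at D36. This step lies at the boundary at which the listing of gga-miR-18a and gga-miR-19a changes. A change in how close paralogs were counted cannot be told apart from a change of arm there.

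**Figure D3:**
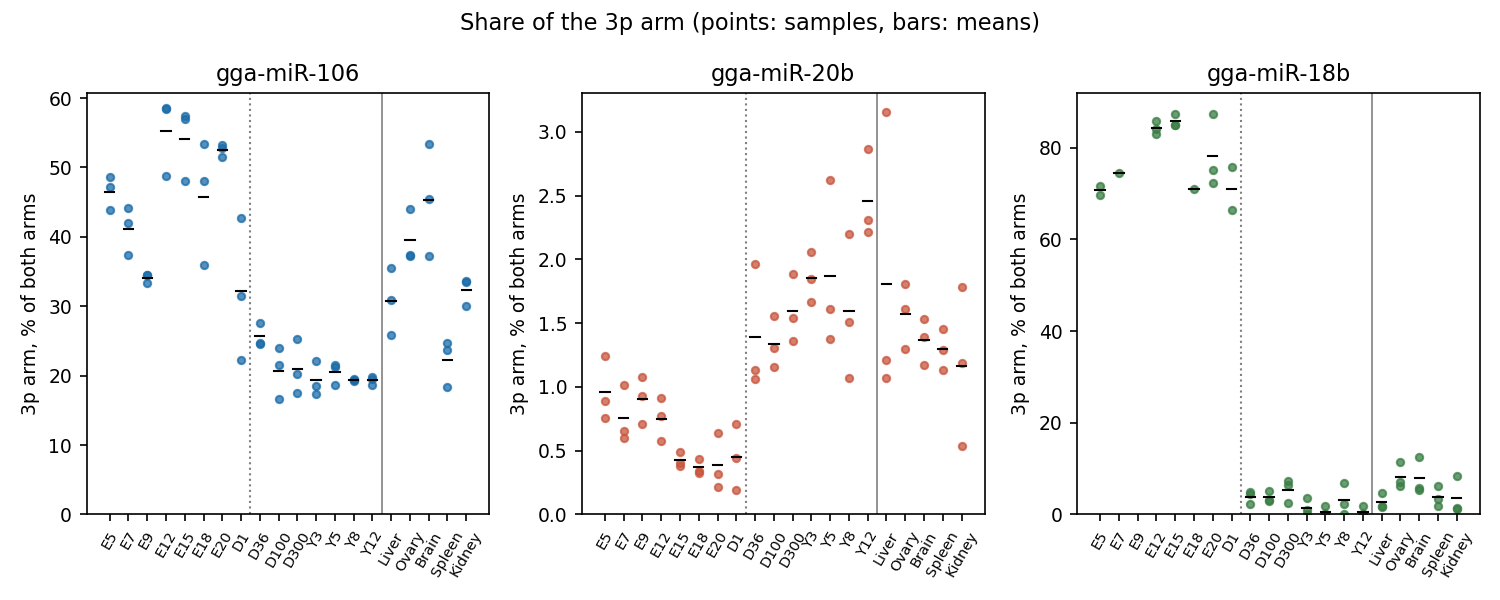
Share of the 3p arm in the TPM of both arms of each hairpin (percent, vertical axis) by stage and tissue, with a point per library that has reads of the hairpin. gga-miR-18b changes from 66.5 to 87.5% up to D1 to at most 7.27% in muscle from D36 on and at most 12.5% in the other tissues, gga-miR-106 falls to about 20% in adult muscle, and gga-miR-20b stays below 3.2% throughout.

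The miR-17-92 cluster carries the paralogs of these miRNAs, and its 12 arms are given beside them, with no test of the difference between the clusters. From Pre_E to Lat_E 3 were lower and 0 higher, from Lat_E to Bir_G 2 were lower and 7 higher (13.8% of all miRNAs were higher), and from Pre_E to Bir_G 2 were lower and 5 higher (11.5%). The 2 lower ones in each comparison with Bir_G were gga-miR-92-3p (−3.51 from Pre_E to Bir_G) and gga-miR-92-5p (−4.16), whose name in the files may also cover the copy in the miR-106-363 cluster. Several of the higher ones start from listed zeros, with gga-miR-18a-5p and gga-miR-18a-3p at 0 in 12 of 12 libraries of Lat_E and gga-miR-19a-3p in 9 of 12 and in all 6 of Pre_E. gga-miR-19b-3p, which was listed in all these libraries, was higher by 3.19 on the log2 scale from Lat_E to Bir_G. Its name may likewise cover the copy in the miR-106-363 cluster. This comparison spans the boundary at which the listing of gga-miR-19a changes, and the effects cannot be told apart.

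gga-miR-17-5p, the counterpart of gga-miR-106-5p, had means of 880 TPM in Pre_E, 553 in Lat_E and 468 in Bir_G, and its change from Pre_E to Bir_G (−0.88) stayed under the limit of 2-fold. The log2 ratio of gga-miR-106-5p to gga-miR-17-5p was −0.71 in Pre_E, −1.62 in Lat_E and −3.31 in Bir_G. It fell by 0.91 in the first step (exact permutation test, two-sided, p = 5.39e-05) and by 1.69 in the second (100000 permutations, p = 1e-05). By stage the ratio was −0.61 ± 0.13 (SD, n = 3) at E9, −1.81 ± 0.25 at D1, −2.50 ± 0.14 at D36 and −3.34 ± 0.18 at D300. It was lower at Y5 (−3.92 ± 0.18) and Y8 (−3.76 ± 0.04), and was −3.36 ± 0.09 at Y12. A lower ratio was thus seen within the embryonic stages and within the postnatal stages up to D300, not only across hatching.

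gga-miR-20b-5p and gga-miR-20a-5p, a pair of the same kind, exchanged rank. gga-miR-20a-5p had means of 223, 133 and 437 TPM in Pre_E, Lat_E and Bir_G. The log2 ratio of gga-miR-20b-5p to it was 1.93 in Pre_E, 1.55 in Lat_E and −2.42 in Bir_G. The first difference, −0.37, had an exact permutation p of 0.0306 (adjusted p = 0.0393), and the second was −3.98 (100000 permutations, p = 1e-05). The ratio was 1.23 ± 0.41 (SD, n = 3) at D1 and −1.17 ± 0.50 at D36, so that the sign changed in this single step, and −2.93 ± 0.24 at D300. gga-miR-20a-5p was called higher in that step, at 2.08 on the log2 scale (adjusted p = 0.0302), whereas gga-miR-20b-5p was not called (−0.32). The change of sign therefore lies at the boundary at which gga-miR-18a and gga-miR-19a become listed, and a change in how close paralogs were counted cannot be told apart from a change in their levels there.

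**Figure D4:**
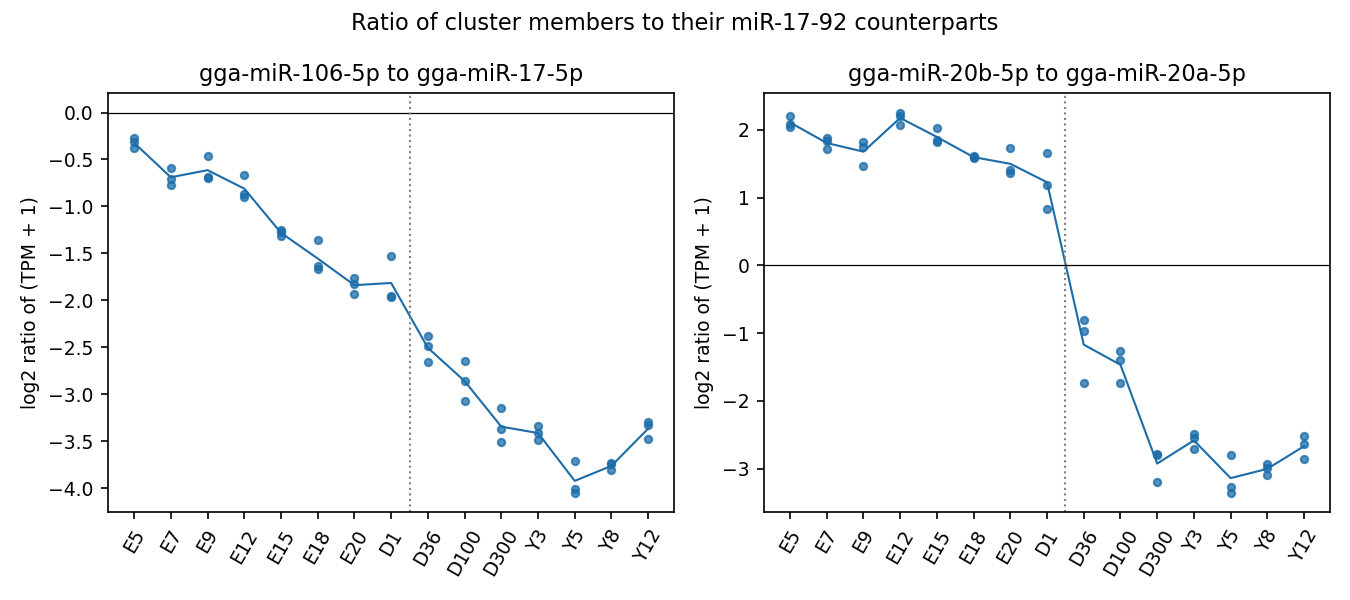
Log2 ratio of gga-miR-106-5p to gga-miR-17-5p and of gga-miR-20b-5p to gga-miR-20a-5p by stage, with a point per library, so that 0 means equal levels of both paralogs. The first ratio falls from −0.61 at E9 to −3.92 at Y5 and is −3.36 at Y12. The second crosses 0 between D1 (1.23) and D36 (−1.17).

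The miRNAs with the stage pattern most like that of each member were found among 173 known miRNAs that averaged 10 TPM or more over the muscle samples, by Pearson's r over the 13 stage means. These means share stages and libraries, so r is a description. gga-miR-106-5p and gga-miR-20b-5p were closest to each other (r = 0.983), and gga-miR-106-5p was next to gga-miR-106-3p (0.967), gga-miR-103-3p (0.966), gga-miR-100-5p (0.962) and gga-miR-454-3p (0.959). gga-miR-20b-5p was also close to gga-miR-454-3p (0.968), gga-miR-206 (0.956), a muscle miRNA, and gga-miR-107-3p (0.955). For gga-miR-106-3p the closest were gga-miR-15c-5p (0.990), gga-miR-181b-5p (0.989), gga-miR-130a-5p and gga-miR-1329-5p (0.986 each) and gga-miR-1552-3p (0.982). gga-miR-20b-3p was closest to gga-miR-17-5p (0.903), of the paralogous cluster, before gga-miR-301a-3p (0.898). No miRNA exceeded an r of 0.641, that of gga-let-7j-3p, for gga-miR-18b-5p, whose r with gga-miR-106-5p of its own cluster was −0.06. The highest value for gga-miR-18b-3p was 0.843, with gga-miR-2954. The stage means of both gga-miR-18b arms include libraries listed at 0, among them all 3 of E9 and 2 of 3 at E18. For these arms, including the r of −0.06, stage pattern and listing cannot be told apart.

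Among adult tissues the cluster was highest in spleen. The 6 arms summed to 612 ± 122 TPM (SD, n = 3) in spleen, 292 ± 43.2 in ovary, 198 ± 19.9 in liver, 155 ± 34.1 in brain and 81.2 ± 23.1 in kidney, beside 111 ± 3.90 in muscle at D300. Muscle is in another table than the other 5 tissues, and each sample of both tables is scaled to its own library total. The same order held for gga-miR-20b-5p, with 278, 429 and 349 TPM in spleen, 126, 177 and 173 in ovary, 104, 78.0 and 120.4 in liver, 59.8, 98.5 and 70.4 in brain, 52.2, 50.3 and 57.3 in muscle and 33.7, 52.5 and 35.0 in kidney. Of the neighbours in this order, spleen and ovary, ovary and liver, and brain and muscle did not overlap, while liver and brain, and muscle and kidney, did.

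gga-miR-106-5p was at 143, 192 and 150 TPM in spleen and no higher than 76.4 TPM in any sample of the other tissues. gga-miR-18b-5p was at 38.0, 47.5 and 49.1 TPM in spleen, above its highest value in ovary of 32.6 TPM. gga-miR-20b-3p, at 3.64, 4.93 and 5.15 TPM in spleen, did not exceed 2.90 TPM elsewhere. gga-miR-106-3p had no such gap, since spleen (32.3, 63.1 and 46.5 TPM) overlapped with ovary (34.8, 44.2 and 45.4 TPM) and brain (20.1, 40.3 and 18.9 TPM). gga-miR-18b-3p was low in all tissues, at 3.13 TPM or less.

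Compared with muscle at D300, all 6 members were called higher in spleen, where 21.7% of 423 miRNAs were. The log2 fold change was 3.03 ± 0.22 (SE, adjusted p = 0.000235) for gga-miR-18b-5p, 2.68 ± 0.18 (adjusted p = 0.000175) for gga-miR-20b-5p and 1.94 ± 0.15 (adjusted p = 0.000261) for gga-miR-106-5p. It was 1.98 for gga-miR-106-3p, 1.57 for gga-miR-20b-3p and 1.11 for gga-miR-18b-3p. All 6 lay above muscle without overlap, as did 32.2% of all miRNAs. For gga-miR-18b-3p this rests on 2 to 4 reads per library in muscle, 2 of 3 libraries at or below 3 reads, and 8 to 40 reads in spleen. The median log2 difference of the more abundant miRNAs from muscle was 0.80 in spleen, and with centring 4 of the 6 members passed, without gga-miR-20b-3p (0.98) and gga-miR-18b-3p (0.51). The leukocyte markers summed to 77417 to 131090 TPM in spleen and to 1922 to 3660 TPM in muscle, with none of the 3 at 0, and the red cell miRNA gga-miR-144-3p to 716 to 1666 and 123 to 200 TPM. Their part in the result was not tested.

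In ovary 4 of 6 members were higher than in muscle (21.8% of miRNAs), in brain 3 (28.5%), in liver 2 (19.9%) and in kidney 0 (11.5% higher and 20% lower). gga-miR-18b-5p and gga-miR-106-3p were called in ovary, brain and liver, at 2.03, 1.85 and 1.56 for the first and 1.84, 1.13 and 1.09 for the second. gga-miR-18b-3p was also called in ovary (1.23) and brain (1.03), against 2 to 4 reads per library in muscle, and gga-miR-20b-5p in ovary (1.54). gga-miR-106-5p was not called in these 4 tissues, at 0.61 in ovary, 0.42 in liver, −0.43 in brain and −0.90 in kidney. Centred on the median miRNA, 2 members passed in ovary and 1 in liver, and gga-miR-106-5p was at −0.01 and −0.10 there. In brain centring took gga-miR-106-3p to 0.46 and gga-miR-18b-3p to 0.35, below the limit of 1. Without replicate 2, 1 member passed in brain and 1 in kidney.

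Of the miR-17-92 list 8 of 12 were higher than muscle in spleen, 6 in liver, 2 in brain and 1 in ovary, and 4 were lower in kidney. The arms of gga-miR-106 were used differently among tissues. The 3p arm held 45.3% ± 8.05 (SD, n = 3) of its reads in brain, 39.6% ± 3.85 in ovary, 32.4% ± 2.08 in kidney, 30.7% ± 4.81 in liver and 22.3% ± 3.37 in spleen, compared with 21.02% ± 3.95 in muscle at D300. Spleen, the tissue with the highest level, and muscle thus had the lowest 3p shares, and their samples overlap.

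**Figure D5:**
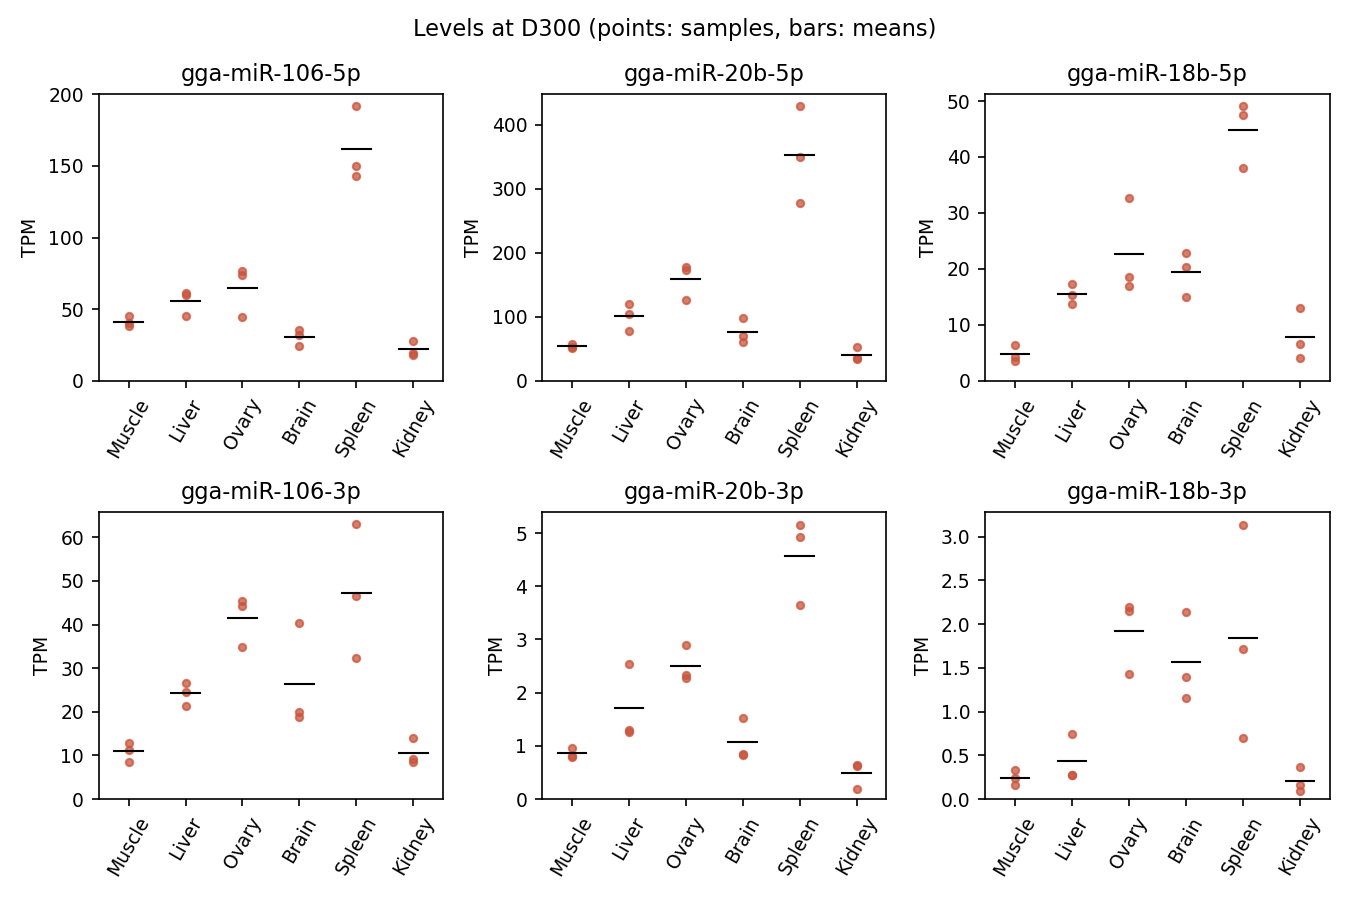
Level of each arm of the cluster in 6 tissues at D300, on an untransformed TPM axis, with a point per library and a bar at the mean of the 3 libraries. Spleen lies above all other tissues for gga-miR-106-5p, gga-miR-20b-5p, gga-miR-20b-3p and gga-miR-18b-5p, and kidney and muscle lie lowest for gga-miR-20b-5p.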

How the data were processed

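The authors filtered reads by quality, trimmed them with cutadapt to 18 to 30 nt, removed other small RNAs with bowtie2 (listed as Bowtie in the submitters' processing notes) and assigned miRNAs with miRBase 21 and miRDeep2. The deposited TPM of 60 samples behave as RPM, since the values of 56 samples are whole multiples of 1 read and no length correction is seen, and tests on a log scale chosen for TPM serve RPM too. The genome build was not given in the sources used here. 1 unnamed column was not used.

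Periods, tissues and adjacent stages were compared with limma 3.58.1 (R 4.3.3) on log2(TPM + 1), a scale that understates changes of low values, over the samples compared, with Benjamini-Hochberg adjustment over all miRNAs tested. The time course followed the steps of maSigPro, and log2 ratios, made with the same pseudocount of 1, were compared by permutation of samples, not of stages. Other tools were edgeR 4.0.16 and, in Python 3.11.15, SciPy 1.17.1, NumPy 2.4.6, Matplotlib 3.10.9 and pandas 2.3.3. Scripts were tested on simulated data. Nothing states that samples of a group come from separate flocks or litters, so p-values measure the spread between these samples.

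The members, lists and tests were chosen with earlier results of these data known. Named were all members, the 12 arms of the miR-17-92 list, and miRNAs from the 5 closest to each member in stage pattern. Alternatives were a pseudocount of 0.1, only miRNAs that average 1 TPM, adjusted p, centring, rescaling without gga-miR-133a-3p, untransformed TPM, stage means, a replicate block, all 18 samples of D300 in one fit, log2 days as time, edgeR on recovered reads (without the 4 samples not recovered) and leaving out each replicate. Added after the data were seen were edgeR for tissues, the alternatives for D100 against D300, the setting without the libraries listed at 0, the slopes, limma on adjacent stages, and the ratios of the gga-miR-20b and gga-miR-18b arms and of gga-miR-20b-5p to gga-miR-20a-5p.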

Additional observations from a re-analysis of the deposited data

How the results depend on the processing

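The falls of gga-miR-106-5p, gga-miR-106-3p and gga-miR-20b-5p from Lat_E to Bir_G and from Pre_E to Bir_G kept their direction and their calls under every alternative run, with ranges of −1.77 to −2.57, −3.36 to −4.22 and −1.95 to −2.88 for the first and −2.73 to −3.71, −4.41 to −5.35 and −2.35 to −3.45 for the second. The members called from Pre_E to Lat_E numbered 4, but 0 after centring and 1 each with edgeR and TMM, with edgeR and DESeq2 size factors, and on values rescaled to listed miRNAs other than gga-miR-133a-3p. edgeR was run without E9-3 there, since its reads were not recovered. With stage means as units, 16 results of members over the comparisons of periods stayed the same and 2 were weaker. Centring gave 1 member in liver, 2 in ovary and 2 from D100 to D300, and edgeR gave 1 in liver and 1 in kidney. In brain gga-miR-106-3p and gga-miR-18b-3p were no longer called with centring, at 0.46 and 0.35. Leaving out a replicate gave 1 to 3 members in brain, 0 to 1 in kidney, and 4 to 5 from D100 to D300. The cause was not tested. Depth limits gga-miR-18b-3p after D1 and gga-miR-20b-3p, which rest on few reads.

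The following values changed sign. From Pre_E to Lat_E gga-miR-18b-5p and gga-miR-18b-3p were at −0.22 to 0.59 and −0.18 to 0.80 over the fits without 1 replicate, −0.35 and −0.71 with edgeR and TMM, −0.32 and −0.68 with edgeR and DESeq2 size factors, −0.73 and −0.96 on untransformed TPM, and −1.32 and −1.87 without the libraries listed at 0. In the last setting gga-miR-18b-5p was at −0.0927 from Lat_E to Bir_G and −1.41 from Pre_E to Bir_G. gga-miR-20b-3p from Lat_E to Bir_G was at −0.0713 to 0.0108 over the fits without 1 replicate, 0.0357 with edgeR and TMM, 0.0417 untransformed and 0.0456 without the libraries listed at 0. After centring, gga-miR-106-5p was at −0.10 in liver and −0.0119 in ovary, gga-miR-20b-3p at −0.01 in liver and −0.54 in brain, gga-miR-18b-3p at −0.33 in liver and 0.0147 in kidney, gga-miR-20b-5p at −0.20 in brain and gga-miR-106-3p at 0.0007 in kidney. With edgeR gga-miR-20b-3p was at −0.18 in brain, and gga-miR-106-3p and gga-miR-20b-5p at 0.65 and 0.31 in kidney. In kidney, leaving out a replicate gave −0.42 to 0.13 for gga-miR-106-3p and −0.0934 to 0.0163 for gga-miR-18b-3p.

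Over all miRNAs the calls from Pre_E to Lat_E were 155, and 281 with a pseudocount of 0.1, 309 untransformed, 103 with edgeR and TMM and 101 with DESeq2 size factors. From Lat_E to Bir_G they were 203, and 336 and 394 with the first 2 of these, and from Pre_E to Bir_G 285, and 446 and 495. The share of higher calls from Pre_E to Lat_E was 10.3%, and 76.6% centred, 40.8% with edgeR and TMM, 43.6% with DESeq2 size factors and 27.4% rescaled. From Lat_E to Bir_G it was 49.8%, and 35.8% rescaled, and from Pre_E to Bir_G 31.6%, and 46.6% centred, 46.2% with TMM and 44.7% with DESeq2 size factors. Centring moved it from 62.8 to 41.8% in liver, from 68.3 to 38.8% in ovary, from 74.6 to 51.8% in brain and from 64.3 to 36.9% in spleen, and edgeR to 51.2, 54.6, 63.5 and 47.4% in these and from 36.4 to 53.9% in kidney.

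No pairing of samples by replicate number was seen, but one is not excluded. The periods differ in age, so their comparisons could not show shared birds, and the tissues have 3 samples each. Over 8 comparisons the 24 correlations of same-numbered samples ran from −0.177 to 0.265, and in 0 comparisons were all above 0.1. With the replicate number as a block 4, 4 and 5 members were called in the comparisons of periods and 155, 203 and 285 miRNAs in all, as without it, and the block changed no call of a member.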
